A study of Rattus norvegicus with 30 samples.

Results

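Among the 30 libraries of this rat median nerve series, 1 library of delayed repair at day 7, replicate 5, carried a set of genes far above their level in every other library. Levels are given in CPM, the read counts of a gene per 1000000 counts of its library. A gene belonged to the set if it stood above 5 CPM in that library and above 10 times its highest CPM in the other 29 libraries. The rule found 181 of the 32545 genes listed. The genes were chosen by their CPM in that library and in the other 29, so the excess of that library is described and nothing is concluded from tests of it. Differences between groups were tested in the other 29 libraries. Fits with all 30 show only how that library changes the calls. The files pair no Ensembl gene ID with a symbol. Symbols were given for 2 of the 181 with the definition of the set, Acta1 for ENSRNOG00000017786 and Ckm for ENSRNOG00000016837, and the other 179 have none here.

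The series compares wild-type adult female rats whose median nerve was left uncut with rats whose nerve was cut, leaving a gap of 8 mm, and bridged with a 10 mm tube of chitosan. Immediate repair followed the cut directly, and delayed repair came 3 months after it. The tissue that had formed in the tube was sampled on day 7, 14 or 21 after repair, giving 4, 4 and 5 libraries of immediate repair and 5, 4 and 3 of delayed repair, beside 5 libraries of healthy control nerve. The labels number the replicates without saying that each is a separate animal, so p-values measure the spread between these libraries, part of which may be technical.

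Acta1 encodes the skeletal muscle alpha-actin, the main actin of the thin filaments of skeletal muscle fibres. Ckm encodes the muscle form of creatine kinase, the cytosolic enzyme that passes phosphate between creatine phosphate and ATP during contraction. In textbook use both are markers of differentiated striated muscle, and neither is a usual marker of Schwann cells or axons. Both genes met the rule. The label of the library names median nerve. Whether the other 179 genes are also muscle genes could not be looked up, because marker lists of skeletal, heart and smooth muscle, fat, tendon, skin, cartilage, blood and nerve cells are lists of symbols. The set is therefore called by its library throughout, and a tissue is named for Acta1 and Ckm alone. In bulk tissue, more cells of a type and more RNA per cell cannot be told apart.

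The promoters of Acta1 and Ckm are shown because these are the 2 genes that point to a tissue. They come from RefSeq on build GRCr8 and were matched by symbol, which succeeded for both. The build behind the counts is not given in the sources used here. Each run goes from 250 bases before the start of the gene to 50 after it. Capitals mark CAGCTG, a form of the E-box bound by muscle regulatory factors, the CArG box bound by serum response factor, and TATATAA. Both strands were searched, and the marked matches do not overlap each other.
Acta1, chr19:68784145-68784444, minus strand: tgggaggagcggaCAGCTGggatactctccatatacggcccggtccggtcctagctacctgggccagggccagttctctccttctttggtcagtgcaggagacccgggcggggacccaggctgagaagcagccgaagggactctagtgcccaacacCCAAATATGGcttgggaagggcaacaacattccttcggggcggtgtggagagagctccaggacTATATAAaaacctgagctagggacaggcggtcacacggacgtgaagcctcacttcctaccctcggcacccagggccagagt
Ckm, chr1:88189211-88189510, plus strand: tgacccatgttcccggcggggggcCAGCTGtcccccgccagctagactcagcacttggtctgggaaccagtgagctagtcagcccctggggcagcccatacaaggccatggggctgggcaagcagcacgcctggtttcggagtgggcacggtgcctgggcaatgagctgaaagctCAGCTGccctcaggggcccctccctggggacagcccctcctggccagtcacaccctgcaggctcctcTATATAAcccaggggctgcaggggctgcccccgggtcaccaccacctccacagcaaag

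The Acta1 window held 1 CAGCTG, which began at position -237 from the gene start. It also held 1 CArG box at -94 and TATATAA at -31. The Ckm window held CAGCTG at -226 and -75 and TATATAA at -8, and no CArG box. Of all 33469 rat promoter windows of the same length, 15.1% held CAGCTG, 1.64% a CArG box and 3.93% TATATAA. The MEF2 motif, which 3.29% of windows held, matched neither. Further patterns were searched and are not marked. CATTCC, held by 14.2% of windows, matched Acta1 at -67 and not Ckm. The wider pattern CANNTG, held by 72.1%, had 1 match in Acta1 and 3 in Ckm, the CAGCTG matches included. These matches describe the letters of the windows and are no measure of binding.

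Acta1 measured 13129 CPM in delayed day 7 replicate 5, from 227582 counts. In replicates 1 to 4 of the same group it measured 0, 0.0687, 1.66 and 0.128 CPM. In control nerve it measured 0.339, 0.304, 0.221, 0.534 and 0.146 CPM in replicates 1 to 5. Acta1 was thus detected in every control library at 2 to 8 counts, and it was far lower there than in the one delayed library.

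At day 7 of immediate repair, Acta1 stood at 1.81 CPM (29 counts) in replicate 1 and at 0 in the other 3 libraries, where 3 counts, the limit that a count of 0 allows, are 0.193 to 0.251 CPM. At day 14 it measured 0.138, 0.0666, 0.0724 and 0.288 CPM after immediate repair and 0.194, 0.396, 0.129 and 0.196 CPM after delayed repair. At day 21 it measured 0, 0.591, 0.160, 0.252 and 0.584 CPM after immediate repair and 0.447, 0.316 and 0.200 CPM after delayed repair. The groups overlapped once replicate 5 was set aside, and the highest other value was 7270 times lower than in that library.

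Ckm measured 4658 CPM in delayed day 7 replicate 5, from 80749 counts, and 0.0821, 0, 0.511 and 0 CPM in replicates 1 to 4. Its highest value elsewhere was 0.543 CPM (8 counts) in control replicate 1. The other control libraries stood at 0.0609 CPM in replicate 2 and at 0 in replicates 3 to 5. Ckm, unlike Acta1, was thus at 0 in 3 of the 5 control nerves.

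After immediate repair, Ckm measured 0.187, 0.0739, 0 and 0 CPM at day 7. At day 14 it measured 0.0691, 0, 0.0724 and 0 CPM, and at day 21 0.414, 0, 0, 0.189 and 0.0730 CPM. After delayed repair it measured 0, 0, 0.0645 and 0 CPM at day 14 and 0.0745, 0 and 0 CPM at day 21. Ckm had no count in 16 of the 29 other libraries and its highest value among them was 8585 times lower than in delayed day 7 replicate 5. With so few counts in the other libraries neither gene passed the filter for testing once that library was set aside.

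**Figure D1:**
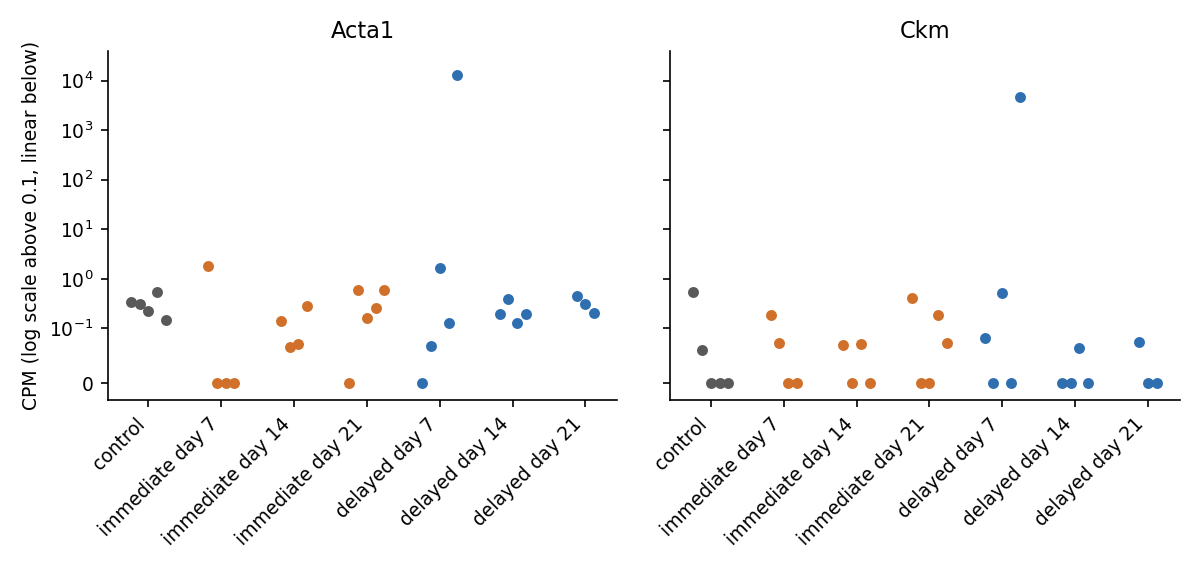
CPM of Acta1 (left) and Ckm (right) in each of the 30 libraries, by group, with 1 point per library. The vertical axis is logarithmic above 0.1 CPM and linear below. Delayed day 7 replicate 5 stands at 13129 and 4658 CPM, and every other library is at or below 1.81 and 0.543 CPM.

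Across the set, values in delayed day 7 replicate 5 ranged from 5.31 to 21607 CPM, with a median of 65.1 CPM and quartiles at 25 and 308 CPM. Together the 181 genes took 1902330 of its 17334752 counts, or 11.0%. The highest gene took 19.7% of the counts of the set, the highest 10 took 56.9% and the highest 50 took 93.1%. Acta1 and Ckm ranked 2 and 3 in CPM and took 12.0% and 4.24%. The set is thus a few very abundant transcripts with a long tail of low ones.

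The excess over the other libraries was mostly far above the threshold. The median ratio to the highest other library was 60.1, and 99 genes exceeded 50 times and 73 exceeded 100 times, up to the 8585 times of Ckm. In 5 genes, at 5.88 to 61.8 CPM, all 29 other libraries had 0 counts. Against 3 counts in the shallowest library these 5 were at least 23.5-fold to at least 246-fold higher. The 3 genes just inside the ratio threshold stood at 10.2, 10.7 and 10.7 times, and the 3 just outside it at 9.82, 9.45 and 9.42 times. The 3 lowest members stood at 5.31, 5.42 and 5.83 CPM, and the 3 genes that met the ratio but fell short of 5 CPM by least at 4.38, 4.33 and 3.98 CPM. There was no gap in values at either threshold: of the 10954 genes above 5 CPM in the library, 337 exceeded every other library by more than 2 times and 227 by more than 5 times.

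**Figure D2:**
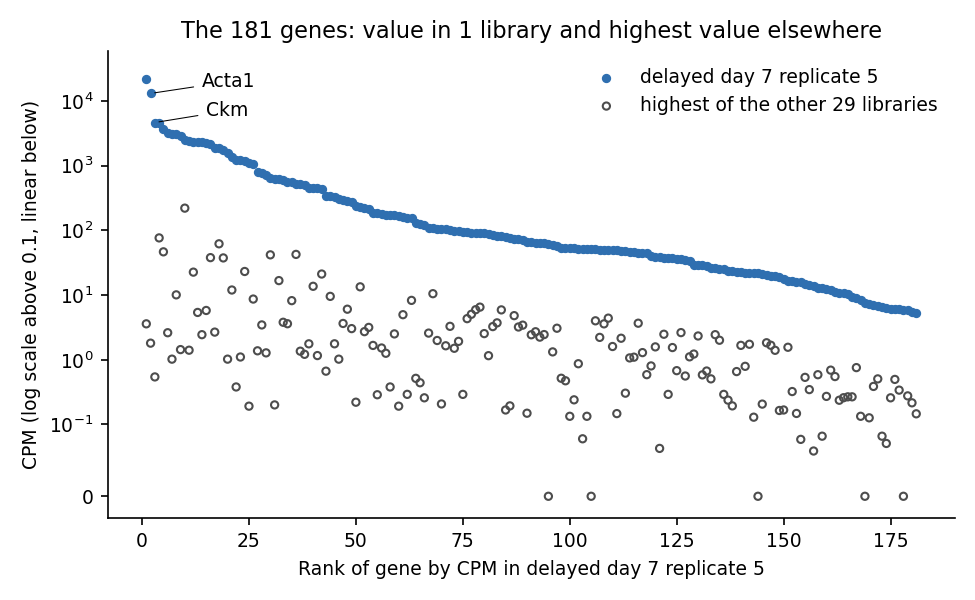
The 181 genes in order of their CPM in delayed day 7 replicate 5 (filled points), with the highest CPM of each in the other 29 libraries (open points). The vertical axis is logarithmic above 0.1 CPM and linear below. The filled points run from 21607 to 5.31 CPM, and 5 open points lie at 0.

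The same rule was applied to each of the other 29 libraries in turn to see how common such sets are. It found no gene in 17 of them and 1 to 4 genes in 10. Immediate day 21 replicate 4 had 31 genes, which took 0.501% of its counts, and immediate day 7 replicate 4 had 9 genes with 0.0919%. Delayed day 21 replicate 2 had 3 genes, and these took 1.69% of its counts, the next largest share after the 11.0% of delayed day 7 replicate 5. In the opposite direction, none of the 7970 genes above 5 CPM in all 29 other libraries was more than 10 times below its lowest other value in delayed day 7 replicate 5. These counts are descriptions with no test.

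**Figure D3:**
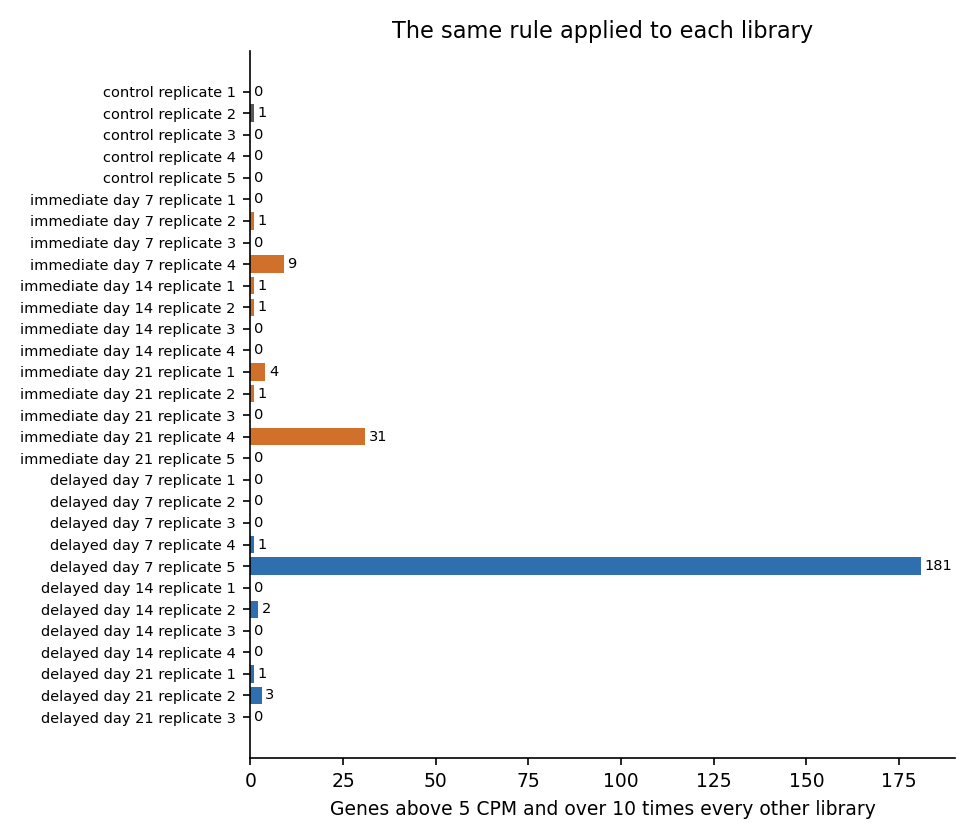
Number of genes above 5 CPM and more than 10 times every other library, for each of the 30 libraries (horizontal bars from 0, coloured by control, immediate or delayed repair). Delayed day 7 replicate 5 has 181, immediate day 21 replicate 4 has 31, and no other library has more than 9.

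Levels of the set in the other libraries were low but not 0 and differed between genes. The highest value elsewhere had a median of 1.28 CPM, was under 1 CPM in 78 genes and over 20 CPM in 11. Of the 181 genes, 37 had counts in all 29 other libraries and 49 had counts in fewer than 10. The highest other value was recorded in a control library for 63 genes. That number includes the 5 genes with no count in any other library, for which no library was highest. The set splits into 128 genes with a control mean under 1 CPM and 53 with a higher one. The 53 genes were present in healthy nerve and took 35.1% of the counts of the set in delayed day 7 replicate 5. The 128 genes took 64.9%, Acta1 and Ckm among them.

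The gene with the highest value outside the one library measured 191 to 221 CPM in control nerve. At day 7 it measured 0.0836 to 20.9 CPM after immediate repair and 0.739 to 11.7 CPM in the other 4 libraries of delayed repair. At day 21 it measured 14.7 to 103 and 32.3 to 106 CPM, in that order. In delayed day 7 replicate 5 it stood at 2468 CPM. It is a gene of healthy nerve that was low in the other day 7 tissue and met the rule at 11.2 times its highest control value.

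The summed CPM of the set over the other 29 libraries was 553 ± 14.1 CPM (SD, n = 5) in control nerve. Immediate repair gave 217 ± 64.1 CPM (n = 4) at day 7, 348 ± 29.9 (n = 4) at day 14 and 396 ± 87.1 (n = 5) at day 21. Delayed repair gave 226 ± 68.8 CPM (n = 4, without replicate 5), 400.2 ± 57.1 (n = 4) and 368 ± 85.2 (n = 3) on the same days. All control libraries (538 to 570 CPM) lay above all repair libraries (166 to 510 CPM). The immediate and delayed libraries overlapped at each day. The 53 genes with a control mean of at least 1 CPM gave most of the control sum, 529 ± 12.2 CPM (SD, n = 5). They summed to 516 to 544 CPM in the control libraries against 134 to 462 CPM in the repair libraries. The 1 gene with the highest value outside the one library held 191 to 221 CPM of the control sums. It held 103 of the 462 CPM in immediate day 21 replicate 5. Without this gene that repair library would lie above all control libraries, so the full separation rests on 1 gene.

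The other 128 genes, Acta1 and Ckm among them, ran the other way. Their sum was 24.4 ± 2.54 CPM (SD, n = 5) in control nerve. After immediate repair it was 30.01 ± 2.68 (n = 4), 46.7 ± 4.83 (n = 4) and 46.1 ± 3.798 CPM (n = 5) at days 7, 14 and 21. After delayed repair it was 30.6 ± 8.07 (n = 4, without replicate 5), 50.2 ± 8.55 (n = 4) and 45.1 ± 8.86 CPM (n = 3). The control libraries (21.8 to 27.6 CPM) lay below every library of days 14 and 21 (35.4 to 58.0 CPM) and overlapped with day 7 (24.8 to 42.2 CPM). The split itself was made on the control mean, so these sums are descriptions with no test. Over all 181 genes the sum in delayed day 7 replicate 5 was 109741 CPM, 193 times the highest other library.

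Of the 181 genes, 116 ± 3.83 (SD, n = 5) had at least 1 count in a control library. At day 7 the number was 90.2 ± 12.0 (n = 4) after immediate and 95.8 ± 18.5 (n = 4) after delayed repair. It was 107 to 124 in the libraries of days 14 and 21. Total counts lay between 11958242 and 17334752, and the numbers were not brought to equal depth.

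**Figure D4:**
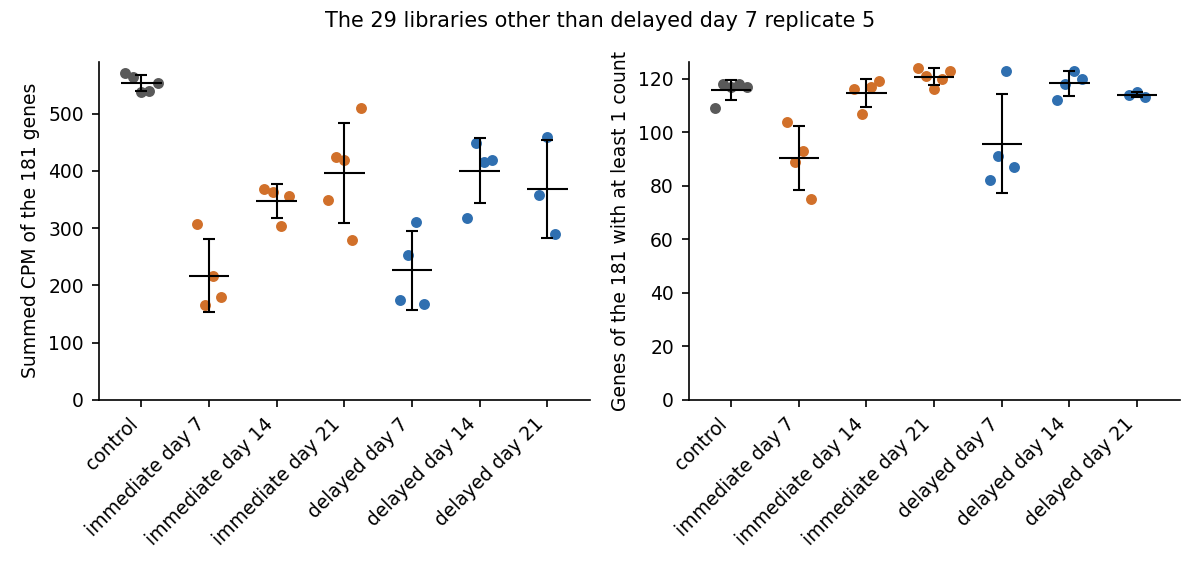
Summed CPM of the 181 genes (left) and the number of them with at least 1 count (right) in the 29 libraries other than delayed day 7 replicate 5, with 1 point per library, the group mean (line) and the SD (bar). Control nerve has the highest sums, 538 to 570 CPM, and the day 7 groups the lowest means.

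Delayed day 7 replicate 3 came nearest to replicate 5 in the pattern of the set. Spearman's correlation of CPM across the 181 genes with replicate 5 was 0.680 in replicate 3 and 0.358 to 0.542 in the other 28 libraries. It is a description across genes, which are not independent, and gene length and shared abundance enter each value. Replicate 3 had counts for 123 of the 181 genes, against 82, 91 and 87 in delayed day 7 replicates 1, 2 and 4. It was the highest of the other 8 day 7 libraries in 44 of the 157 genes with a count in any of them, and immediate day 7 replicate 1 followed with 21. The amounts were small: Acta1 in replicate 3 was 0.0126%, Ckm 0.0110% and the most abundant gene of the set 0.00975% of the value in replicate 5. What links these libraries was not tested.

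The next comparison asked whether the genes of the set differed between groups when the library that chose them was left out. Counts of the other 29 libraries were fitted in 1 model of 7 groups with edgeR's quasi-likelihood test, and p-values were adjusted by the Benjamini-Hochberg method over all 15997 genes tested. A gene was called at an adjusted p under 0.05. Of the 181 genes, 93 had enough counts to be tested, and 88, Acta1 and Ckm among them, did not. The rule holds the values in these libraries more than 10 times below the value in replicate 5. It does not fix their order between groups.

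Between the repairs no gene of the set was called on any day by edgeR or by DESeq2, which gave an adjusted p to 58 of the 93 at day 7 and to all 93 on the other days. Over all genes edgeR called 0.00625% at day 7, 0% at day 14 and 0.05% at day 21. The shares of all genes called by DESeq2 were 0.431%, 0.0188% and 0.388%. An unadjusted edgeR p under 0.05 was found in 3 of the 93 at day 7 (3.23%, against 4.16% of all genes), with 4 libraries each. It was found in 3 at day 14 (3.23% against 1.76%) and in 9 at day 21 (9.68% against 6.33%). The median log2 difference of delayed against immediate repair over the 93 was 0.22, 0.08 and 0.05 at days 7, 14 and 21, with a median standard error of 0.76, 0.65 and 0.68. Over all genes the median was 0.02, -0.01 and -0.02. With the 9 genes that had a group at 0 counts held at their bound, the day 7 median was 0.18. For the median gene a 2-fold difference is less than 2 such standard errors, so a difference of that size was not detectable.

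Against control nerve, 59 of the 93 genes were called at day 7 of immediate repair, 10 higher and 49 lower, where 66.1% of all genes tested were called, 30.5% higher and 35.6% lower. As shares of the 93 these are 63.4%, 10.8% and 52.7%. The share called was close to that of all genes. The median log2 fold change was -1.60 over the 93 and -0.08 over all genes. The size of this median depends on the filter for low counts. The 93 passed it by their counts in these same libraries, control nerve included, so they do not stand for all 181. With no filter, 176 genes of the set were tested and 63 called, 12 higher and 51 lower. Of all 24197 genes, 11002 were then called, 5288 higher and 5714 lower. The median over the 176 was -0.54 here and -0.51 at day 7 of delayed repair, against 0 over all genes. In the 4 libraries of delayed repair at day 7, 15 were higher and 40 lower (55 called, against 65.9% of all genes, 31.2% higher and 34.7% lower), with a median of -1.23 against -0.05. The same control libraries serve both comparisons, and 39 genes were lower in both, of 49 and 40. The overlap over all genes tested was not counted, so nothing is read from that of the set.

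At day 14, 51 of the 93 genes were called after immediate repair, 17 higher and 34 lower, against 53.6% of all genes (26.9% higher and 26.8% lower). After delayed repair 50 were called, 19 higher and 31 lower, against 53.9% (26.9% and 27.0%). At day 21, 48 were called after immediate repair, 19 higher and 29 lower, against 49.9% (25.6% and 24.4%). After delayed repair 41 were called, 15 higher and 26 lower, against 46.6% (23.7% and 22.9%). The median log2 fold change over the 93 after immediate repair was -0.62 at day 14 and -0.42 at day 21, against 0.01 and 0.02 over all genes. After delayed repair it was -0.71 and -0.54, against 0.00 and 0. With genes of a group at 0 counts held at their bound, these medians and those of day 7 were unchanged to 2 decimals. They did change with no filter on low counts (176 tested). The medians were then -0.39 and -0.06 after immediate repair at days 14 and 21. After delayed repair they were -0.003 and -0.008, with 0 over all genes in each comparison.

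Among the falls, ENSRNOG00000020922 had the smallest p at day 7 of immediate repair. It measured 21.2, 17.5, 19.3, 16.4 and 17.3 CPM in control nerve and 4.48, 5.25, 4.06 and 4.26 CPM at day 7 of immediate repair. At day 7 of delayed repair it measured 1.89, 4.40, 4.60 and 6.22 CPM in replicates 1 to 4, and 433 CPM in replicate 5. Without replicate 5, all day 7 libraries lay below all control libraries. The log2 fold change was -2.02 (SE 0.22, edgeR adjusted p = 2.01e-08) after immediate and -2.11 (SE 0.22, edgeR adjusted p = 1.17e-08) after delayed repair.

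ENSRNOG00000059166 had the next smallest p of a fall. It measured 38, 32.7, 42.6, 41.5 and 36.7 CPM in control nerve, and 2.18, 1.11, 0.709 and 0 CPM at day 7 of immediate repair. In replicates 1 to 4 of delayed repair at day 7 it measured 0.164, 1.31, 2.62 and 1.35 CPM, and 529 CPM in replicate 5. At day 21 it stood at 19.4 ± 10.3 CPM (SD, n = 5) after immediate and 14.2 ± 5.02 CPM (n = 3) after delayed repair, between the day 7 and the control levels. The log2 fold change at day 7 was -5.23 (SE 0.62, edgeR adjusted p = 9.26e-08) after immediate and -4.82 (SE 0.60, edgeR adjusted p = 2.20e-07) after delayed repair.

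Among the rises, ENSRNOG00000036690 had the smallest p. It had 0 counts in all 5 control libraries. At day 7 it measured 0.934, 1.18, 1.81 and 2.26 CPM after immediate repair and 2.63, 2.13, 0.830 and 2.37 CPM in replicates 1 to 4 of delayed repair, and 35.7 CPM in replicate 5. Against 3 counts over the control group, the day 7 means were at least 37.8-fold and at least 48.8-fold higher (edgeR adjusted p = 1.13e-07 and 5.18e-08). It was present in all 24 repair libraries outside replicate 5, so for this gene replicate 5 adds to a rise that the other repair libraries share.

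ENSRNOG00000049695 was the most abundant gene of the set, at 21607 CPM in delayed day 7 replicate 5. In control nerve it measured 0, 0.122, 0, 0.134 and 0.0729 CPM. In replicates 1 to 4 of delayed repair at day 7 it measured 0, 0, 2.11 and 0.257 CPM. After immediate repair it measured 0.498, 0, 0.0645 and 0 CPM at day 7 and 3.59, 0.133, 0.868 and 1.58 CPM at day 14. It was 0.331 to 1.20 CPM at day 21 of immediate repair, 0.396 to 1.42 at day 14 and 0.633 to 1.40 at day 21 of delayed repair.

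All 16 libraries of days 14 and 21 had counts of this gene, and 15 of them lay above every control library, while day 7 overlapped with control. The log2 fold change against control was 4.24 at day 14 of immediate repair (SE 1.13, edgeR adjusted p = 0.00273) and 3.68 at day 14 of delayed repair (SE 1.14, edgeR adjusted p = 0.00834). At day 21 it was 3.23 (SE 1.12, adjusted p = 0.0186) and 3.70 (SE 1.19, adjusted p = 0.0126) in edgeR, in the same order. At day 7 the value of delayed repair was 2.97 (edgeR adjusted p = 0.0277) but 0.43 without replicate 3 (edgeR adjusted p = 0.791). It also missed the threshold without control replicate 1 or control replicate 3, and with replicate number added to the model (2.41). At day 7 of immediate repair it did not pass (edgeR log2 fold change 1.06, SE 1.31, adjusted p = 0.487).

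When delayed day 7 replicate 5 was put back and all 30 libraries were fitted, 97 genes of the set were tested, and most calls in groups to which that library does not belong were lost. Called genes went from 59 to 24 (4 higher and 20 lower) at day 7 of immediate repair against control, where 65.2% of all genes were called, 30.2% higher and 35% lower. At day 14 they went from 51 to 9 (4 higher and 5 lower), against 51.4% of all genes, 26.1% higher and 25.4% lower. At day 21 they went from 48 to 9 (3 higher and 6 lower), against 47.7%, 24.8% higher and 22.8% lower. After delayed repair they went from 50 to 6 at day 14 (3 in each direction, against 51.9%, 26.2% higher and 25.7% lower). At day 21 they went from 41 to 3 (2 higher and 1 lower, against 44.3%, 23.1% higher and 21.2% lower). The shares of all genes changed far less between the fits. Each gene called with the library had been called in the same direction without it in these 5 comparisons. All groups share 1 estimate of the spread of each gene. The median biological coefficient of variation of the 93 genes was 51.2% without and 126% with the library, against 27.0% and 28.2% over all genes. For ENSRNOG00000020922 at day 7 of immediate repair, the log2 fold change was -2.02 in both fits while the edgeR adjusted p went from 2.01e-08 to 0.0753.

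In the comparison of delayed repair at day 7 with control, which holds the library, the direction of the set turned. With it 79 of the 97 genes were called higher and 0 lower by edgeR, where 64.4% of all genes were called, 31.5% higher and 32.9% lower. By either tool 0 of the 97 were lower at an unadjusted p under 0.05. DESeq2 gave an adjusted p to 15 of the 97 here and called 10 of them, all higher, where it called 65.6% of all genes, 31.6% higher. All 40 genes that were lower without it had a higher value with it, and 24 of them were called higher. ENSRNOG00000020922 went from a log2 fold change of -2.11 to 2.33 (edgeR adjusted p = 0.0263 with the library). The rule used this contrast, so nothing is read from the count.

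**Figure D5:**
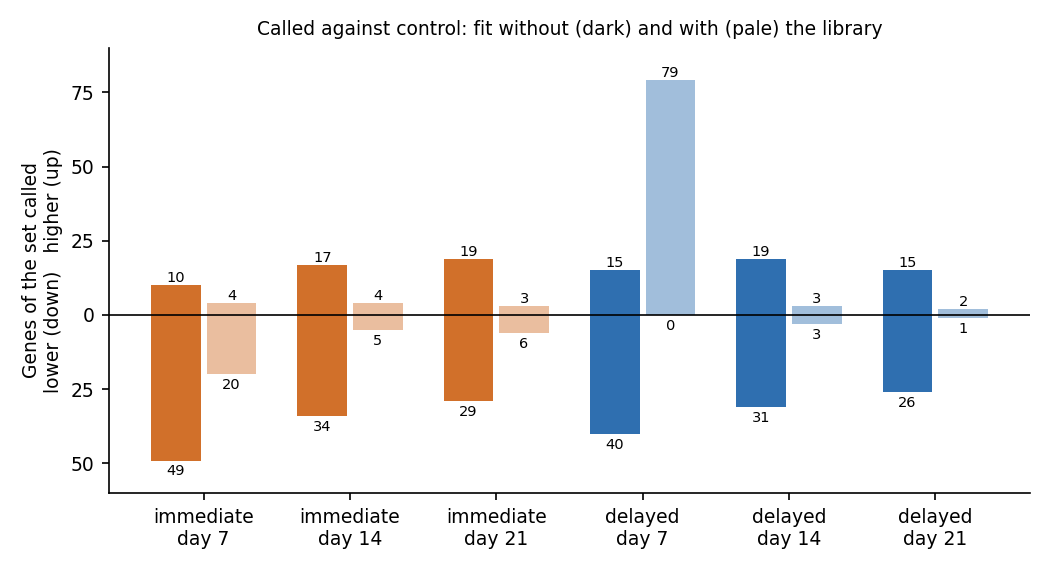
Number of genes of the set called higher (upward bars) and lower (downward bars) than control nerve at an edgeR adjusted p under 0.05, for each repair and day, in the fit without delayed day 7 replicate 5 (dark, 93 genes tested) and with it (pale, 97 tested). At delayed day 7 the calls go from 15 higher and 40 lower to 79 higher and 0 lower, and in the other groups the number of calls falls.

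In delayed against immediate repair at day 7 with all libraries, 34 of the 97 genes were called, all higher, where edgeR called 0.712% of all genes tested, 0.693% higher and 0.0187% lower. This contrast too was used by the rule. The 34 genes made up 29.8% of the 114 genes called. Of the other 80, 12 had their highest value of the series in delayed day 7 replicate 5, and the median ratio of its value to the highest other library was 0.248. The count of 34 depended on the libraries compared: it was 74 to 81 without any one of delayed replicates 1 to 4 and 0 without delayed replicate 5 or any one of the 4 immediate libraries. It was also 0 in edgeR with relative log expression factors, with no filter on low counts (181 tested) or with the 2 groups fitted alone (39 tested). DESeq2 gave an adjusted p to 15 of the 97 and called 8 of them, all higher, where it called 2.13% of all genes, 2.06% higher.

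The set also bore on how the library is scaled. Its counts lower the plain CPM of every other gene in delayed day 7 replicate 5 by 11.0%. The TMM factor of the library was 0.938 with the 181 genes and 1.03 without them. The factors of the other 29 libraries differed by 0.00213 to 0.00440 between the same calculations.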

How the data were processed

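Poly(A) RNA of 30 samples was sequenced from non-directional libraries made from 400 ng of total RNA, per the labels' protocols, so reads of overlapping and antisense genes are not separable. The authors deposited raw counts per gene, 1 column per library, matched to samples by library name. Tools named in the submitters' processing notes are featureCounts 1.5.0-p3, DESeq2 1.38.3 and HISAT2 2.0.5. No source used here gives the genome build, the annotation release or how reads shared by near-identical genes were treated.

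The members and lists were chosen with earlier results of these data known. CPM used column totals. Of 32545 Ensembl IDs, 0 matched the symbol table, so the 18 marker lists were not measured. Named IDs were reduced to the most abundant member, and the smallest p of a rise and the 2 smallest of a fall at day 7 of immediate repair. That reduction followed a look at the data.

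Tests used edgeR 4.0.16 in R 4.3.3 (filterByExpr by group, TMM factors, robust quasi-likelihood fit), after the script was tested on simulated data. Alternatives were DESeq2 1.42.0, relative log expression factors, no filter, the compared groups alone, a replicate block and leaving out each library. Standard errors come from the test statistic. Limits from 3 counts cover counting error only. Over 51 replicate pairs, chi-square per degree of freedom was at least 14.9, so none agreed within sampling noise.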

Additional observations from a re-analysis of the deposited data

Results flagged for a closer look

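In 8 of the groups of values checked (43 in all, 4 or 5 libraries each), 1 library stood apart from its group by Dixon's criterion. For normally distributed values, chance alone meets it in about 1 of 20 groups. That rate does not hold for counts near 0, where a group with 1 library above 0 always meets the criterion. The number of groups is therefore not set against it. For the summed CPM of the set in delayed day 7 replicate 5, 109741 CPM, the rule that chose the genes fixes this. With that library set aside, Acta1 stood apart at 1.66 CPM, Ckm at 0.511 CPM and ENSRNOG00000049695 at 2.11 CPM, each in delayed day 7 replicate 3. In immediate day 7 replicate 1, Acta1 stood apart at 1.81 CPM and ENSRNOG00000049695 at 0.498 CPM. Ckm stood apart at 0.543 CPM in control replicate 1 and at 0.0645 CPM, a single count, in delayed day 14 replicate 3.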

How the results depend on the processing

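The number of genes in the set was 227 at more than 5 times, 148 at more than 20 times, 210 above 1 CPM, 146 above 20 CPM, 185 with TMM-scaled CPM and 181 to 183 without any one other library. Counts of called genes against control and between the repairs, in the fit without delayed day 7 replicate 5, stayed within 1.5 times of the main count under DESeq2, relative log expression factors, no filter, the compared groups alone, the replicate block and without any one library. With all 30 libraries they were 24, 9 and 9 (immediate days 7, 14 and 21 against control), 6 and 3 (delayed days 14 and 21) and 34 (delayed against immediate day 7). In the latter comparison with all libraries, where the main count was 34, relative log expression factors, no filter, the compared groups alone and the replicate block each gave 0, DESeq2 gave 8 (of 15 genes to which it gave an adjusted p), and leaving out 1 library gave 0 to 81. ENSRNOG00000020922 and ENSRNOG00000059166 turned to 2.33 and 1.52 (log2) at delayed day 7 against control with all 30 libraries, and ENSRNOG00000049695 ranged from -1.22 (without replicate 1) to 1.44 (without replicate 2) at immediate day 7 against control without any one immediate library. Correlations of the deviations of same-numbered libraries ranged from -0.64 to 0.41, and in 0 of the 9 comparisons was every pair over 0.1, so the numbers were not taken as pairs. Delayed against immediate day 14 came nearest, with 3 of 4 pairs over 0.1. With the replicate block, 56, 44 and 47 of the 93 genes tested were called at immediate days 7, 14 and 21 against control. Of all 15997 genes tested, 10249, 8157 and 7784 were called there. At the same days of delayed repair 53, 49 and 38 of the 93 were called, against 10221, 8273 and 7027 of all genes. Between the repairs 0 were called on each day, of the set and of all genes. ENSRNOG00000049695 at delayed day 7 against control was 2.41 (log2, edgeR adjusted p = 0.0995, against 0.0277 with no block). Few counts outside the one library limit what can be tested: 88 of the 181 genes were not tested.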
